A study of Mus musculus with 8 samples.

Results

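Cytosolic ribosomal protein genes encode the proteins that, with ribosomal RNA, form the ribosome that translates nuclear-encoded mRNAs. They were taken from the authors' full tables of mouse liver by symbol: any row whose gene names included Rpl or Rps with a number and at most 1 closing letter a, x or l, or Rplp0, Rplp1, Rplp2 or Rpsa. In all, 80 of the 26682 loci in each table matched by name, and the 77 with at least 1 FPKM in any group were kept. FPKM is a read density scaled to transcript length and to the size of the library. The 77 comprised 43 genes of the large subunit, the 3 P-stalk genes Rplp0, Rplp1 and Rplp2, and 31 genes of the small subunit. All 77 were tested in all 3 tables.

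The series compared livers of 8 mice in 4 groups of 2: wild type given vehicle, wild type given IUB288, knockout given vehicle and knockout given IUB288. IUB288 is a long-acting agonist of the glucagon receptor, which signals fasting to the hepatocyte, and the knockout concerns Fxr (Nr1h4), the bile acid receptor of the nucleus. All 8 mice shared the C57Bl/6J background and a 2 h fast before the liver was taken. The knockouts derived from a floxed Fxr allele; the recombinase that deleted it, the cells in which it acted, dose and duration of IUB288, and the age of the mice are not given in the sources used here. The labels name high-fat and chow feeding without saying which mouse had which, so diet and group cannot be told apart.

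Each table holds 1 pooled FPKM value per group and no value per mouse. The authors' deposited tables cover IUB288 against vehicle in wild type, IUB288 against vehicle in knockout, and knockout against wild type under IUB288. Fold changes, p-values and q-values are the authors' own, and the standard error printed after ± is the one implied by their log2 fold change and test statistic. For the ribosomal protein genes the deposited p-values were mostly smaller than normal p-values from that statistic. The printed error is thus wider than the q beside it implies, and the 2 do not form 1 test. The source of the difference was not settled. A locus was called when its q was under 0.05. Each table was scaled on its own, so levels are set side by side mainly within a table: FPKM of the wild-type IUB288 group had a median ratio of 1.08 between its treatment and genotype tables, and those of the knockout IUB288 group 1.05. The files give no read counts, so the depth behind each value is unknown. In bulk liver, fewer cells of a type and less RNA per cell cannot be told apart.

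Ribosomal protein mRNAs are among the most abundant of most cells, and most of their products are needed in equal numbers for each ribosome. Their synthesis is largely set at translation: the mRNAs of vertebrates begin with a stretch of pyrimidines, the 5′ terminal oligopyrimidine (TOP) motif, through which the kinase complex mTORC1 and the mRNA-binding protein Larp1 control how much of each message is translated. In the liver, feeding and growth signals favour this translation and fasting signals lower it.

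The start sites were read to show this pyrimidine stretch in the genes that stood at the ends of the ranking by IUB288 response. Promoter sequences from RefSeq (GRCm38.p6) were found for 57 of the 77 genes. The sequences of 30 bases printed here run 5′ to 3′ on the coding strand, from 15 bases before the annotated start to 15 bases from it, and capitals mark an unbroken run of at least 8 letters, each C or T, that overlaps the 10 bases on either side of the start. The first 3 genes had the highest fold changes with IUB288 in wild type and the last 3 the lowest.
Rpl13a, chr7:45128731-45128760, minus strand: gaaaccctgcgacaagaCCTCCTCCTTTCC
Rpl41, chr10:128549154-128549183, minus strand: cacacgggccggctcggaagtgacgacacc
Rpl35, chr2:39005117-39005146, minus strand: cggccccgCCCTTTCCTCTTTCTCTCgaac
Rpl22, chr4:152325711-152325740, plus strand: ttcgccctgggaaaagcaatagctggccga
Rps27l, chr9:66946071-66946100, plus strand: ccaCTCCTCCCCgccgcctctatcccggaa
Rpl4, chr9:64173372-64173401, plus strand: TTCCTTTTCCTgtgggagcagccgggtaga

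Runs of that kind were found at both ends of the ranking. Rpl35 had a run of 18 letters across its start, Rpl13a one of 14 whose last letter lies beyond the printed bases, and Rpl4 one of 14 that begins before them. Rps27l had a run of 9 upstream of the annotated start. The longest runs of Rpl22 and Rpl41 near the annotated start were 4 and 3 letters. Of the 57 genes with a sequence, 26 (45.6%) had a run of at least 8, against 13.8% of 16075 coding genes with 1 start each. The median run was 7 letters in the ribosomal protein genes and 4 in the coding genes. Only the coding strand was searched, and an annotated start can lie some bases from the one used in liver. The start read here lay 152 bp from the 5′ end of the assembled locus for Rpl22, 74 bp for Rps27l and 13 bp for Rpl13a. For Rpl41, Rpl35 and Rpl4 the distance was 0 bp. A short run near an annotated start does not show that the transcript lacks the motif.

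In vehicle-treated wild-type liver, the ribosomal protein genes had a median of 212 FPKM in the authors' deposited table, and their levels summed to 18947 FPKM. Rplp1, an acidic protein of the P-stalk that recruits elongation factors, had the highest level (729 FPKM). It was followed by Rps2, a protein of the small subunit near the mRNA entry (570.2 FPKM), Rpl41, the smallest ribosomal protein (569.9 FPKM), Rpl28 of the large subunit (562 FPKM) and Rps15 (438 FPKM). The lowest levels were listed for Rps15a (9.13 FPKM), Rpl22 (34.4 FPKM) and Rpl31 (44.8 FPKM). Neighbours in this order such as Rps2, Rpl41 and Rpl28 lay close together. No error of a level is given, so their order is uncertain. Most genes sat in a narrow band: 69 of the 77 were at 100 FPKM or more.

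The low values of Rps15a and Rpl31 stand beside separate rows for near-identical copies. Rpl31-ps12 was listed at 67.5 FPKM, Rps15a-ps6 at 4.84 FPKM and Rps15a-ps4 at 1.21 FPKM in vehicle-treated wild type. Whether the counting divided reads between gene and copy was not tested, and both levels are uncertain. Rps15a also had an annotated transcript length of 5179 nt, where the family's median was 780 nt, and FPKM is scaled to length. The part of length in its level was not tested. Rpl34 shares its row with Rpl34-ps1. For 5 genes the assembled locus exceeded 50000 bp. The widest was that of Rps15, which spanned 672333 bp on chromosome 10 and overlapped other rows; its implied error in wild type was 2.23 log2 units.

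The paralogs with tissue-restricted use elsewhere were close to absent. Rpl10l, a testis-expressed copy of Rpl10, was listed at 0 in all groups. Rpl39l, a testis-expressed copy of Rpl39, was listed at 0.0145 FPKM and Rpl3l, the copy of Rpl3 used in heart and skeletal muscle, at 0.0237 FPKM in vehicle-treated wild type, in the authors' deposited table. Their parents Rpl10, Rpl39 and Rpl3 were at 340, 75.4 and 127 FPKM. The exception was Rps27l, a p53-responsive copy of Rps27: it stood at 173 FPKM beside 290 FPKM for Rps27.

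The genes are dispersed in the genome, on 19 chromosomes with 14 on chromosome 7. Small nucleolar RNA genes lie inside 29 of the 77 loci, 56 in all, with 4 inside Rpl13a.

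**Figure D1:**
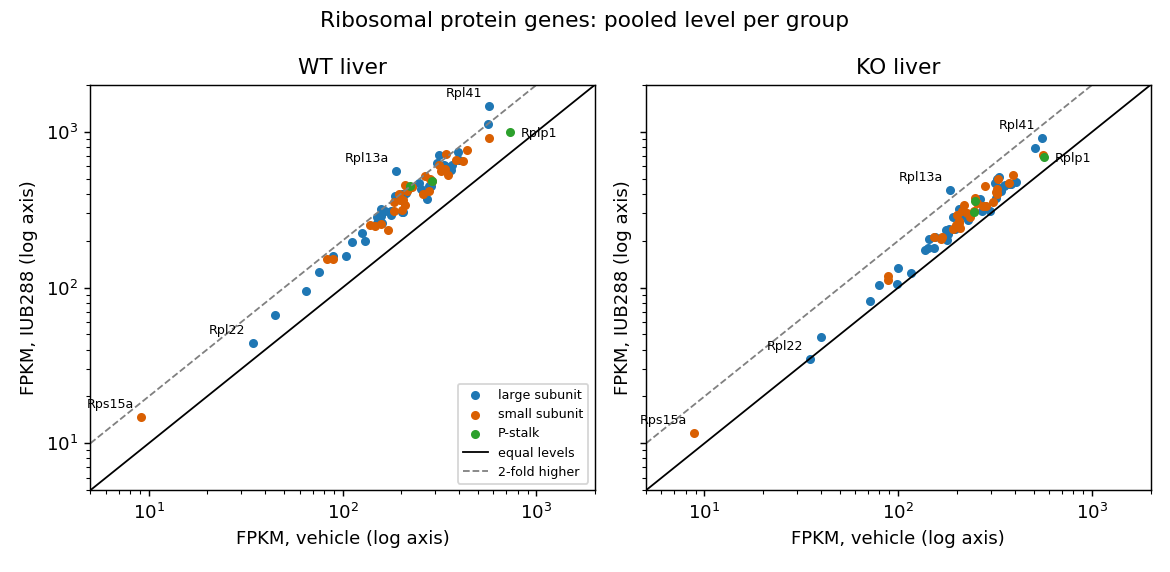
Pooled FPKM of the 77 ribosomal protein genes under vehicle (horizontal, log axis) and IUB288 (vertical, log axis) in wild-type and knockout liver, as 1 point per gene coloured by subunit. In wild type all points lie above the solid line of equal levels, and 10 lie on or above the dashed line of 2-fold higher level, Rpl13a and Rpl41 the farthest; in knockout the points lie closer to the solid line.

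IUB288 in wild-type liver came with higher FPKM of every ribosomal protein gene. The median level was 212 FPKM under vehicle and 407 FPKM under IUB288, and the sums were 18947 and 33749 FPKM, in the authors' deposited table. The median log2 fold change was 0.81, a 1.75-fold difference, with quartiles of 0.69 and 0.93, and all 77 genes were above 0. By q under 0.05, 32 of the 77 rose and 0 fell, where 3.96% of the 15164 loci tested were called higher and 3.4% lower. Without adjustment, 71 had p under 0.05, against a background of 9.94%.

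The large subunit held the largest responses. Rpl13a, a large-subunit protein that is also known as a translational silencer in interferon-treated human myeloid cells and is often used as a reference gene, was at 188 FPKM under vehicle and 563 FPKM under IUB288. It rose by 1.58 ± 0.42 on the log2 scale (q = 0.00163). Rpl41 was at 570 and 1457 FPKM, a log2 fold change of 1.35 ± 0.41 (q = 0.00163), and became the most abundant of the family. Rpl35, which lies beside the exit of the peptide tunnel, was at 314 and 708 FPKM (1.17 ± 0.41, q = 0.00163).

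Other large-subunit genes that rose were Rpl18 (1.05 ± 0.40, q = 0.00945), Rpl10a (1.01 ± 0.40, q = 0.00945), Rpl28 (0.99 ± 0.41, q = 0.0186), Rpl29 (0.97 ± 0.40, q = 0.00757) and Rpl12 (0.96 ± 0.40, q = 0.0139), all log2 fold changes from the authors' deposited table. Rpl12 forms the base of the stalk. Rpl3 and Rpl8, both close to the peptidyl transferase centre, rose by 0.83 ± 0.40 (q = 0.0439) and 0.94 ± 0.41 (q = 0.0254). Rpl13, Rpl14, Rpl24, Rpl26, Rpl32, Rpl36, Rpl37 and Rpl6 were among the others that passed, with log2 fold changes between 0.83 for Rpl37 and 0.93 for Rpl13. In the large subunit with the P-stalk, 20 of 46 genes were called, with a median log2 fold change of 0.82.

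At the low end were also large-subunit genes. Rpl22, best known for its role in lymphocyte development, was at 34.4 FPKM under vehicle and 43.8 FPKM under IUB288, a log2 fold change of 0.35 ± 0.39 (q = 0.577). Rpl4, an early-assembling core protein, was at 273 and 371 FPKM (0.44 ± 0.42, q = 0.459). Neither passed the test. Rpl5 and Rpl11, which with 5S RNA bind Mdm2 and restrain it, were at 105 and 397 FPKM under vehicle and 160 and 655 FPKM under IUB288, with log2 fold changes of 0.61 ± 0.42 (q = 0.246) and 0.72 ± 0.41 (q = 0.113).

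Within the P-stalk, the anchoring protein Rplp0 rose from 223 to 452 FPKM (1.02 ± 0.42, q = 0.0148). Its partners did not pass: Rplp1 was at 729 and 1000.2 FPKM (0.46 ± 0.41, q = 0.433) and Rplp2 at 290.2 and 487 FPKM (0.75 ± 0.40, q = 0.0839). With errors near 0.4, the fold changes of the 3 stalk genes overlap, and the differences between them were not tested.

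In the small subunit, 12 of 31 genes were called and the median log2 fold change was 0.78. Rps26, whose content in ribosomes changes with stress in yeast, was at 341 FPKM under vehicle and 721 FPKM under IUB288 and rose (1.08 ± 0.40, q = 0.00543). Rpsa, the laminin-receptor homologue of the small subunit, rose from 195 to 397 FPKM (1.03 ± 0.43, q = 0.0179).

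Other called small-subunit genes included Rps28 (0.97, q = 0.00945), Rps24 (0.96, q = 0.0199), Rps25 (0.96, q = 0.0221), Rps21 (0.93, q = 0.0206), Rps14 (0.87, q = 0.0345), Rps3 (0.86, q = 0.0423) and Rps4x (0.83, q = 0.0392). Rps3 doubles as a DNA repair protein, and Rps24 and Rps26 are mutated in human Diamond-Blackfan anaemia, as is Rps19 (0.78 ± 0.40, q = 0.0691). Rps6, the substrate of the S6 kinases, was at 209 and 341 FPKM, a log2 fold change of 0.71 ± 0.42 that did not pass (q = 0.154). Rps27l had the second lowest fold change of the family (173 and 233 FPKM, 0.44 ± 0.40, q = 0.446), while its parent Rps27 had 0.73 ± 0.39 (q = 0.0821).

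The members moved closely together. The SD of their log2 fold changes was 0.198, below the implied error of a single gene (median 0.40). The members share the same mice and the scaling of the table, so that error is not the error of a difference between members. Such differences were not tested. Genes with small nucleolar RNAs inside had a median of 0.82 and those without 0.79. Genes with a pyrimidine run of at least 8 at the start, as in Rpl35, had a median of 0.78, and those with a shorter run, as in Rpl41, 0.80.

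**Figure D2:**
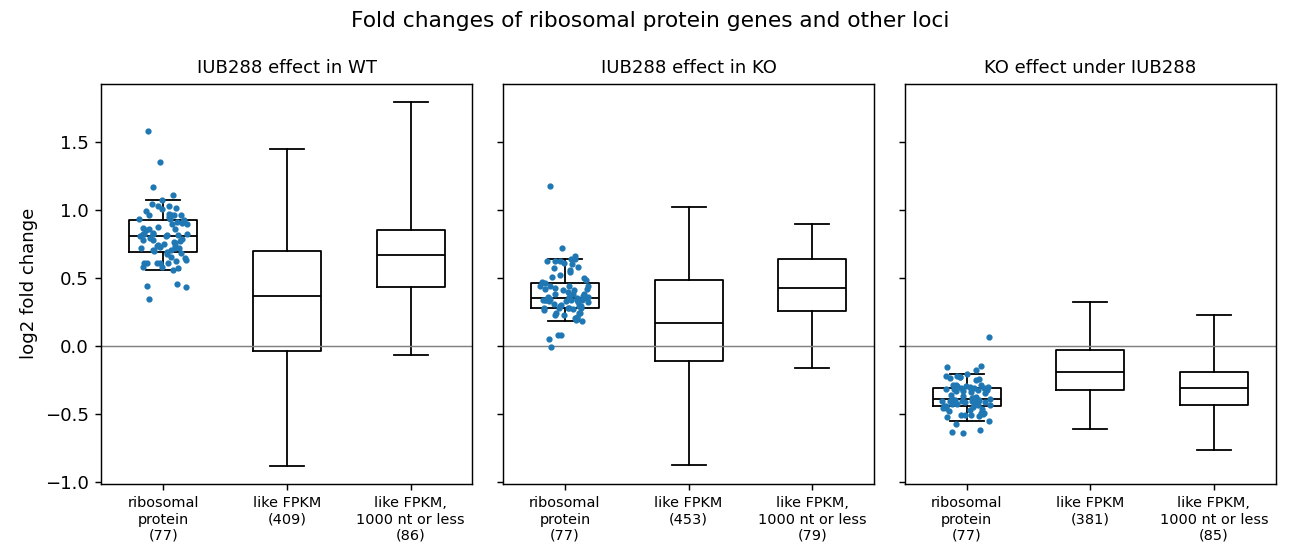
Log2 fold changes in the 3 tables for the 77 ribosomal protein genes (points and box), other tested loci of like FPKM, and those of like FPKM with transcripts of 1000 nt or less; boxes show median and quartiles, whiskers the 5th and 95th percentiles, and the number of loci stands under each box. In wild type the family's median is 0.81 against 0.37 and 0.67 in the other loci, and in knockout it is 0.35 against 0.17 and 0.43.

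Other abundant loci were higher with IUB288 as well. Loci of like FPKM, defined as those between the members' 10th and 90th percentiles (129 to 528 FPKM as the mean of the groups in wild type), numbered 409. Their median log2 fold change was 0.37, 73.3% of them were above 0, and 14.9% were called higher and 4.89% lower. Their fold changes had an SD of 0.939 against 0.198 in the ribosomal protein genes. The median over all tested loci was 0.03.

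Transcript length also moved with the fold change outside the family. The annotated transcripts of the ribosomal protein genes had a median of 780 nt, and 54 of 77 (70.1%) were 1000 nt or shorter, against 21.9% of the other loci of like FPKM. The 86 loci of like FPKM with such short transcripts had a median log2 fold change of 0.67 and 25.6% were called higher, while the 306 with longer transcripts had a median of 0.27. Within the family, the fold change varied little with length: Pearson's r with log2 length was -0.10 over 77 genes, given as a description. Among loci of at least 100 FPKM with transcripts of over 1000 and up to 2000 nt, the 17 ribosomal protein genes had a median of 0.86 and the 286 others 0.30. Among those of over 500 and up to 1000 nt, which hold most members, the 43 ribosomal protein genes had a median of 0.80 and the 133 others 0.62. Among those of 500 nt or less, the 11 ribosomal protein genes had a median of 0.73 and the 13 others 0.80. The part of transcript length in the family's fold changes was not tested.

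**Figure D3:**
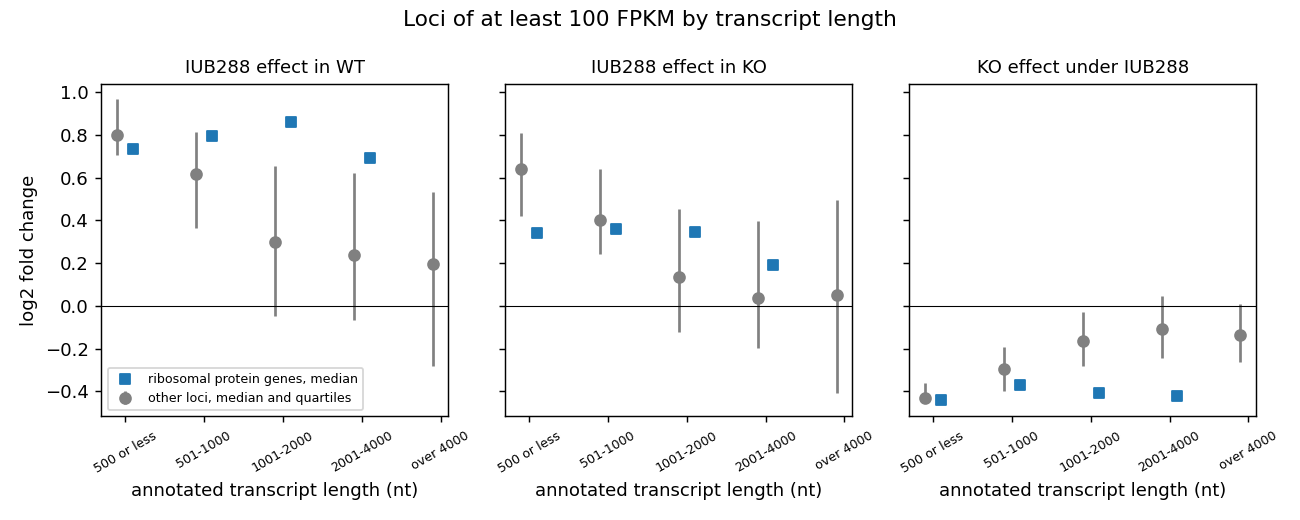
Median log2 fold change of loci of at least 100 FPKM in the 3 tables, by annotated transcript length in nt, for ribosomal protein genes (squares) and other loci (circles, with bars from the lower to the upper quartile). The other loci fall from 0.80 to 0.19 with length in wild type, while the squares stay between 0.69 and 0.86.

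The number of calls depended on the source of the p-value. With a normal p taken from the deposited statistic in place of the deposited p, 2 of the 77 passed. Centred fold changes have no deposited p, so their counts change the p-value as well as the reference. Centred on the like-FPKM loci 0 passed and centred on all loci 1 passed. Centring on all loci moved the median only from 0.81 to 0.77. All these p-values rest on 2 mice per group, which the tables pool.

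In knockout liver the same treatment came with smaller differences. The median level was 227 FPKM under vehicle and 308 FPKM under IUB288, and the sums were 18806 and 24937 FPKM, in the authors' deposited table. The median log2 fold change was 0.35, a 1.28-fold difference, with quartiles of 0.28 and 0.47, and 76 of 77 genes were above 0. By q under 0.05, 1 gene rose and 0 fell, where 3.13% of the 13822 loci tested were called higher and 2.37% lower. Without adjustment 15 genes had p under 0.05, against a background of 8.46%.

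That gene was Rpl13a, again the highest of the family. It stood at 186 FPKM under vehicle and 420 FPKM under IUB288, and rose by 1.18 ± 0.38 on the log2 scale (q = 0.00189), the 1 member called in both genotypes. With a normal p from the deposited statistic it did not pass. Nor did it pass with centring on all loci or on those of like FPKM, where no deposited p exists. Centring on all loci moved the family's median only from 0.354 to 0.357, so that lost call does not show dependence on the reference. Rpl41 was next (552 and 910 FPKM, 0.72 ± 0.37, q = 0.0874), followed by Rps28 (282 and 447 FPKM, 0.67 ± 0.36, q = 0.107). Rps28 is a small protein at the mRNA exit channel.

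The lowest in the knockout were Rpl22 (35.2 and 34.96 FPKM, -0.01 ± 0.35, q = 0.994), Rpl4 (297 and 308 FPKM, 0.05 ± 0.39, q = 0.968), Rpl5 (117 and 124 FPKM, 0.08 ± 0.38, q = 0.948) and Rpl39 (98.8 and 105 FPKM, 0.08 ± 0.38, q = 0.949), the last a short protein of the tunnel wall. The stalk genes Rplp0, Rplp1 and Rplp2 had log2 fold changes of 0.32 ± 0.38 (q = 0.675), 0.29 ± 0.37 (q = 0.700) and 0.52 ± 0.35 (q = 0.282). Rpsa had 0.54 ± 0.39 (q = 0.338). Both subunits had like medians, 0.35 in the large with the P-stalk and 0.36 in the small.

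In knockout, the 453 other loci of like FPKM had a median of 0.17 with an SD of 0.718, against an SD of 0.175 among the ribosomal protein genes. The 79 of them with short transcripts had a median of 0.43, above that of the family, and the 352 with longer ones 0.10. The length pattern of the other loci was thus present in both genotypes, and its part in the family's values was not tested here either.

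The order of members was alike in both genotypes. The treatment tables share no mice. Over the 77 genes, Pearson's r between their log2 fold changes was 0.82 and Spearman's rho 0.73, and without Rpl13a and Rpl41 these were 0.74 and 0.70. The 377 other loci of like FPKM in both tables had an r of 0.89, so agreement between the tables was not particular to the family. Each member shares its transcript, its length and its base composition between the tables, and no p is given.

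**Figure D4:**
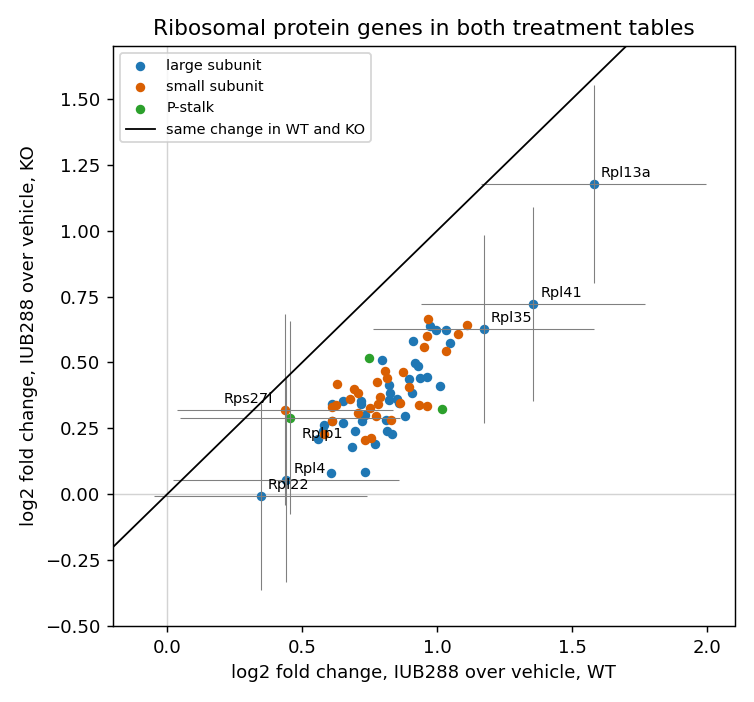
Log2 fold change of each ribosomal protein gene with IUB288 in wild type (horizontal) and knockout (vertical), coloured by subunit, with implied standard errors for the labelled genes. All 77 points lie below the line of equal change, from Rpl13a at 1.58 and 1.18 to Rpl22 at 0.35 and -0.01.

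The response was lower in knockout than in wild type for all 77 genes as point estimates, and no gene passed the test of that difference. The median difference, knockout minus wild type, was -0.42 log2 units, with a range from -0.69 to -0.12. By a z test on both deposited fold changes, adjusted over 13521 loci with the Benjamini-Hochberg method, 0 of 77 passed, where 0.104% of all loci did. Without adjustment 0 passed p under 0.05 as well, against backgrounds of 0.37% lower and 0.71% higher. Those shares are well below what a threshold of 0.05 gives with no difference at all. The z test was thus conservative over all loci, and its 0 calls do not show that the responses were equal. The lowest unadjusted p was 0.223 and the median error of a difference was 0.54.

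The lowest differences were those of Rplp0 (-0.69 ± 0.57), Rpl39 (-0.65 ± 0.56), Rpl41 (-0.63 ± 0.55) and Rps25 (-0.62 ± 0.56). The highest were Rps27l (-0.12 ± 0.54), Rplp1 (-0.17 ± 0.55), Rps29 (-0.21 ± 0.53) and Rplp2 (-0.23 ± 0.53). The median difference was -0.04 over all loci, -0.13 over those of like FPKM and -0.15 over those of like FPKM with short transcripts. The shared direction of the 77 is not 77 independent results, since the genes share the same 8 mice and the scaling of each table.

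Knockout and wild type under IUB288 were also compared directly in a table of their own, which shares its mice with the treatment tables. The median level was 377 FPKM in wild type and 293 FPKM in knockout, with sums of 31312 and 23684 FPKM in the authors' deposited table. The median log2 fold change, knockout over wild type, was -0.39, a ratio of 0.763, and 76 of the 77 genes were below 0. By q, 0 were called, where 0.216% of the 13918 loci tested were called lower and 0.323% higher. Without adjustment 4 had p under 0.05 and lower levels, against a background of 2.08%, and by a normal p from the statistic 0 passed.

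Among those 4 were Rpl41 (1352 and 865 FPKM, -0.64 ± 0.43, q = 0.983), Rpl36 (686 and 447 FPKM, -0.62 ± 0.41, q = 1.00) and Rpl37 (147 and 98.9 FPKM, -0.58 ± 0.41, q = 1.00). The gene above 0 was Rps27l, with 217 FPKM in wild type and 227 FPKM in knockout (0.06 ± 0.40, q = 1.00). The next highest were Rpl7 (-0.15 ± 0.41), Rpl27 (-0.16 ± 0.40) and Rpl15 (-0.18 ± 0.40). Rpl13a, with 523 and 399 FPKM, had the family's median (-0.39 ± 0.43). The 381 other loci of like FPKM had a median of -0.19, the 85 with short transcripts -0.31, and all tested loci -0.01.

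Under vehicle the median ratio between the genotypes was near 0 on the log2 scale. No table compares them, so the log2 ratio was taken across separately scaled tables after removing the median shift of all loci (0.01), with no test. The median over the ribosomal protein genes was 0.02, with 42 above and 35 below 0 and an SD of 0.140. The 377 other loci of like FPKM had a median of -0.11, with 120 above and 257 below 0. The ends of the range were Rps29 at -0.39 (420 FPKM in wild type and 323 FPKM in knockout), Rplp1 at -0.38 (729 and 567 FPKM) and Rpl39 at 0.38 (75.4 and 98.8 FPKM). The order of levels was kept under treatment: Spearman's rho between vehicle and IUB288 over the 77 genes was 0.96 in both genotypes.

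Ribosomal proteins whose symbols the rule does not cover were read beside the members. Fau, whose product is cleaved to a ubiquitin-like peptide and small-subunit protein eS30, rose in wild type from 258 to 520 FPKM (1.01 ± 0.40, q = 0.00855). Gnb2l1, which encodes the small-subunit scaffold Rack1, rose from 142 to 254 FPKM (0.84 ± 0.40, q = 0.0463). Rpl36al had 0.80 (q = 0.0628) and Rps3a1 0.60 (q = 0.233). The paralog Rpl22l1, which can stand in for Rpl22, had -0.28 ± 0.65 (q = 0.846) at 7.43 and 6.11 FPKM, lower than any member. Of 4 large-subunit and 3 small-subunit genes of this kind, 2 passed in wild type and 0 in either other table. Over all loci 3.96% were called higher in wild type, 3.13% in knockout and 0.323% between genotypes under IUB288. The pseudogene row Rpl31-ps12 passed in wild type (67.5 and 143 FPKM, 1.08 ± 0.41, q = 0.00433), while the row of Rpl31 did not (44.8 and 66.9 FPKM, 0.58 ± 0.52, q = 0.439).

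Other TOP mRNAs had a lower median than the ribosomal protein genes, as did the other loci of like FPKM (0.37 in wild type and 0.17 in knockout). The lists of this part were not matched to the ribosomal protein genes by level. Of 18 genes, among them the elongation factors Eef1a1 and Eef2 and the nucleolar chaperone Npm1, 0 were called in any table. That count is near the share over all loci. In wild type 3.96% of all loci were called higher and 3.4% lower, and in knockout 3.13% and 2.37%. The median log2 fold change of the 18 genes with IUB288 was 0.34 in wild type, with 14 above 0, and 0.09 in knockout, with 11 above 0. The highest in wild type was Eif3k, a subunit of initiation factor eIF3 (0.79 ± 0.40, q = 0.0628), and the lowest Eif4b, a cofactor of the initiation helicase (-0.22 ± 0.40, q = 0.792). Eef1a1 was at 2017 FPKM under vehicle and 2124 FPKM under IUB288 in wild type (0.07 ± 0.56, q = 0.960). Eef2 had 0.19 ± 0.47 (q = 0.863) and Npm1 -0.09 ± 0.40 (q = 0.930), so these 3 were all below the list's median.

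The genes for building ribosomes had medians near 0. Of 58 ribosome biogenesis genes, 1 (1.72%) was called higher in wild type and 0 in knockout, with medians of 0.10 and -0.10. Over all loci, 3.96% were called higher in wild type and 3.13% in knockout. The called gene was Mybbp1a, a nucleolar regulator of rRNA synthesis (18.1 and 35.2 FPKM, 0.96 ± 0.45, q = 0.0369). Of 14 RNA polymerase I genes 0 were called in any table, with medians of 0.09 and -0.08. Levels were low: in vehicle-treated wild type the 58 genes summed to 467 FPKM and the 14 to 102 FPKM. Loci outside the family at 1 to 10 FPKM had medians of -0.04 in wild type and -0.06 in knockout. Those at 10 to 100 FPKM had 0.18 and 0.06. The part of level in the medians of these lists was not tested.

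Of 34 translation initiation and elongation genes, 1 (2.94%) rose and 2 fell in wild type, where 3.96% of all loci were called higher and 3.4% lower. Eif5a, which relieves stalled ribosomes, rose (0.89 ± 0.41, q = 0.0381). Eef2k, the kinase that inhibits elongation factor Eef2, fell by 1.29 (1.92 and 0.785 FPKM, q = 0.0113), and Eif4a2, a helicase, fell by 0.96 (95.6 and 49.3 FPKM, q = 0.0214). In knockout Eef2k fell by 1.24 (q = 0.00493) and Eif4a2 had -0.80 ± 0.37 (q = 0.0547). The list's median was 0.16 in wild type and -0.06 in knockout.

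Of 26 genes of mTORC1 and TOP control, 1 (3.85%) rose and 1 fell in wild type and 0 were called in knockout. The wild-type counts were near the background of 3.96% of all loci called higher and 3.4% called lower. Larp1, the protein that binds and stores TOP mRNAs, rose from 18.5 to 35.3 FPKM (0.94 ± 0.40, q = 0.0139), and had 0.66 ± 0.36 in knockout (q = 0.128). Sesn1, a sestrin that restrains mTORC1, was at 5.71 FPKM under vehicle and 2.09 FPKM under IUB288 in wild type and fell by 1.45 (q = 0.00163); in knockout it had -0.87 ± 0.43 (q = 0.0818). The list's median was -0.06 in wild type and 0.03 in knockout.

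The mitochondrial ribosome, a separate machine whose proteins are also encoded in the nucleus, lay between. Of its 76 genes, 3 (3.95%) rose and 0 fell in wild type, near the 3.96% of all loci called higher, with 71 above 0 and a median of 0.47. They were Mrpl34 (57.8 and 144 FPKM, 1.32 ± 0.40, q = 0.00163), Mrpl42 (74.0 and 145 FPKM, 0.98 ± 0.40, q = 0.00855) and Mrpl52 (124 and 230 FPKM, 0.89 ± 0.40, q = 0.0375). In knockout Mrpl34 alone rose (0.92 ± 0.36, q = 0.0154), 1.32% of the list against 3.13% of all loci, and the median was 0.19. Under IUB288 0 were called between genotypes, with 72 of 76 below 0 and a median of -0.21. For none of these lists, from the other TOP mRNAs to the mitochondrial ribosome, was any gene called between genotypes under IUB288, where 0.539% of all loci were.

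**Figure D5:**
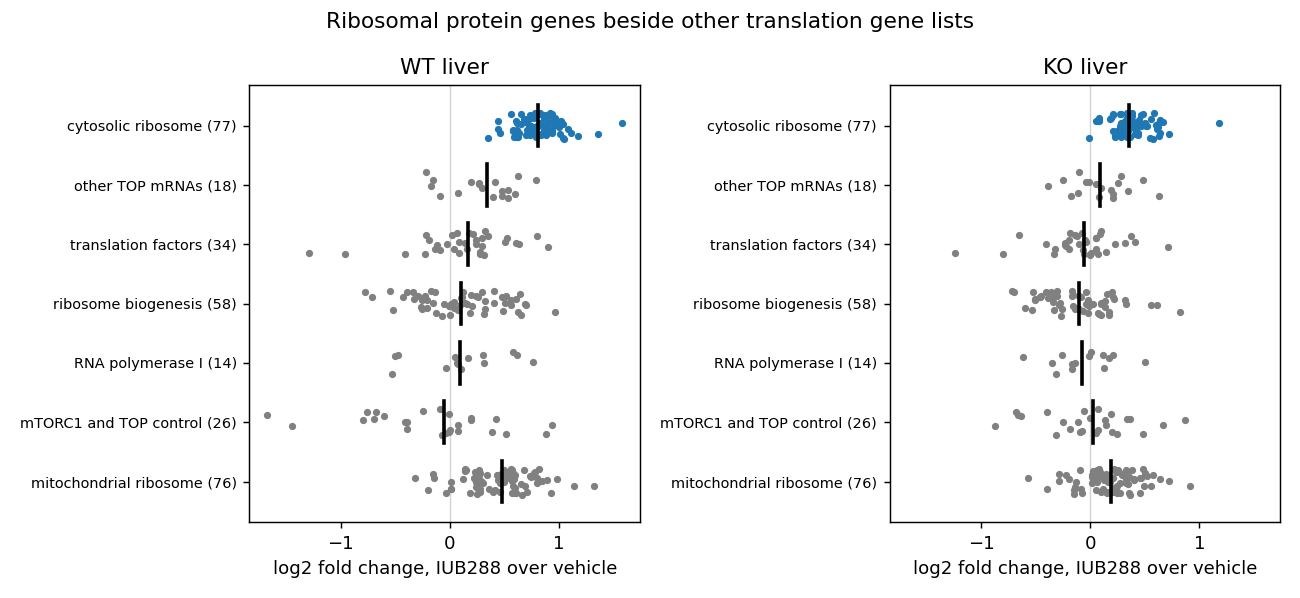
Log2 fold change with IUB288 in wild-type and knockout liver for the 77 ribosomal protein genes (top row) and 6 other lists of the translation pathway, 1 point per gene, with a vertical bar at each median and the number of genes in parentheses. The top row has its median at 0.81 in wild type and 0.35 in knockout. The other lists, which were not matched to it by level, have medians from -0.06 to 0.47 and from -0.10 to 0.19.

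For the series as a whole, Nr1h4 (chr10:89453976-89533648) was at 37.4 FPKM in wild type and 25.7 FPKM in knockout under IUB288 (-0.54 ± 0.41, q = 1.00), and at 49.3 and 36.8 FPKM under vehicle. A level over the whole gene does not show whether the floxed exons were lost. Of 10 hepatocyte markers, Alb was listed at 0 in both vehicle groups, where its test was marked as lacking data, and at 9581 FPKM in wild type and 9284 FPKM in knockout under IUB288; Apoa1 fell by 1.79 (q = 0.0113) and Tat rose by 1.25 (q = 0.0332) in wild type, and the same genes were called in knockout. Of the 9 hepatocyte markers tested, 7 were above 0 with IUB288 in wild type (median 0.62) and 5 in knockout (median 0.27). Sums over all 10 markers were 43546 and 50718 FPKM in wild type and 38800 and 43874 FPKM in knockout. Alb, listed at 0 under vehicle, adds to the IUB288 sums only, so these sums do not show a rise of the markers. Markers of other cell types moved between the same groups. With IUB288, 3.96% of all loci were called higher and 3.4% lower in wild type, and 3.13% and 2.37% in knockout. In knockout against wild type under IUB288 the shares were 0.323% and 0.216%. The summed level of 11 Kupffer cell markers was 196 and 298 FPKM in wild type under vehicle and IUB288 and 140 and 112 FPKM in knockout. Under IUB288 6 of the 11 were called lower in knockout, with sums of 276 and 106 FPKM in the genotype table. Of 15 leukocyte markers 0 were called in any table, with sums of 67.6 and 78.6 FPKM in wild type, 47.9 and 40.7 FPKM in knockout, and 73.0 and 38.6 FPKM between genotypes. The summed level of 9 stellate cell markers was 114 and 60.3 FPKM in wild type, where 5 fell, and 79.3 and 69.3 FPKM in knockout, where 1 fell. Of 8 endothelial markers 1 fell in wild type (86.2 and 71.6 FPKM), as did 1 of 7 cholangiocyte markers (28.7 and 15.8 FPKM). In knockout 0 endothelial markers were called (67.2 and 55.0 FPKM, all 8 below 0), and 1 cholangiocyte marker fell (28.9 and 22.05 FPKM). Under IUB288 the summed level of 5 erythroid markers was 152 FPKM in wild type and 301 FPKM in knockout, with 2 called higher. The part of these cell types in the levels of ribosomal protein genes was not tested.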

How the data were processed

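Per the labels' protocols, frozen liver was extracted with TRIzol and TruSeq RNA libraries were made. The submitters' processing notes name, in no order, Bowtie2 2.2.3 with TopHat2 2.0.12, Cuffdiff with Cufflinks 2.2.1, Trim Galore 0.4.0 and bcl2fastq 1.8.4. The sources used here do not say whether reads were counted by strand. Locus starts in the tables lay 1 below those of RefSeq GRCm38 (mm10) for 9636 loci, so 1 was added.

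The authors deposited 3 full tables with pooled FPKM per group. Beside these stand the authors' p-value and q-value, their statistic, which is a score, and their log2 fold change. No read counts are given, so depth is unknown and no counting interval can be had. Nothing says more of the mice than the labels, so p-values measure the spread between 2 mice per group as the authors' model estimated it. The per-sample columns left unmapped numbered 0.

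The standard error was computed as log2 fold change over statistic. The difference between treatment effects was tested with a two-sided z test, Benjamini-Hochberg adjusted over all loci tested in both tables. The procedure was run on simulated data with large planted changes and normal errors of the implied size. That run checks the computation only and cannot show whether the implied errors suit these data. Transcript lengths are medians per gene from GENCODE. Python 3.11.15, numpy 2.4.6, pandas 2.3.3, scipy 1.17.1 and matplotlib 3.10.9 were used.

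The members, gene lists and tests were chosen with earlier results of these data known. Named genes are all called members, the 4 highest and 4 lowest by log2 fold change in each comparison, the 5 highest and 3 lowest by level, the stalk genes, Rpsa, paralogs with their parents, and called genes of other lists (Rps4l, a copy of Rps4x, is named only). Some genes that meet this rule are not reported here by name; counts and medians include them. Rpl5 with Rpl11, Rps6, Rps19, Rps2, the unlisted values of outside-rule genes and Eef1a1, Eef2 and Npm1 were added for their known roles, and Eif3k and Eif4b as the ends of their list, after their values were seen. Alternatives were stricter and unadjusted thresholds, other p-values, centring, pseudocount and filters on level.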

Additional observations from a re-analysis of the deposited data

How the results depend on the processing

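The count of 32 ribosomal protein genes called with IUB288 in wild type became 9 at q under 0.01, 71 at unadjusted p, 2 with a normal p from the statistic, 1 when centred on all loci, and 0 when centred on loci of like FPKM or on those of like FPKM with short transcripts. The count of 1 in knockout became 15 at unadjusted p and 0 with the normal p and with each of the 3 centrings. Centred fold changes have no deposited p, so the centred counts also change the source of the p-value. The count of 0 between genotypes under IUB288 became 4 at unadjusted p. Centring on short transcripts of like FPKM, chosen after seeing the data, moved the median from 0.81 to 0.14 in wild type and from 0.35 to -0.073 in knockout; centring on all loci of like FPKM gave 0.44 and 0.19. Between genotypes under IUB288 the median of -0.39 became -0.20 with like FPKM and -0.083 with short transcripts. The cause was not tested. Of 31 alternatives for counts 19 left the count within 1.5 times, and of 31 for medians 29 moved it by less than the median implied error of a single gene, about 0.4. That error is not the error of a median over 77 genes. Between genotypes under IUB288 it was 0.41, above the size of the median itself. The 29 therefore do not show that the medians were stable. Leaving out the loci over 50000 bp and centring the difference on like FPKM were also chosen after seeing the data; the first changed no count. Leaving out single mice was not run, since the tables hold no value per mouse. No paired analysis was possible because the tables hold no value per mouse and the labels give groups no shared replicate numbers. Depth is unknown.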
